A study of Mus musculus with 10 samples.

Results

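Notch signalling was described here through 10 of the 23284 gene symbols in the count table: the receptors Notch1, Notch2, Notch3 and Notch4, the ligands Dll1, Dll4, Jag1 and Jag2, and the target genes Hey1 and Hey2. They were chosen by name, with earlier results of these data known, and all 10 were found in the table and passed the filter on low counts. RNA-Seq was compared between 4 libraries of lymphatic endothelial cells (LEC) from lymph nodes, called LN-LEC, 3 of blood endothelial cells (BEC) from lymph nodes, called LN-BEC, and 3 of LEC from the diaphragm, called D-LEC. All cells came from C57BL/6 mice aged 6 to 8 weeks. Inguinal, axillary, brachial, cervical and mesenteric nodes were combined, cells bearing CD45 were depleted, and CD31-positive cells were sorted into PDPN-positive LEC and PDPN-negative BEC. Each library came from a pool of mice and from amplified RNA, so that p-values refer to the spread between pools. In such bulk samples, fewer cells that express a gene and less RNA per cell cannot be told apart.

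In Notch signalling a ligand on one cell binds a receptor on its neighbour, the receptor is cut by proteases, and its intracellular part enters the nucleus. There it joins the DNA-binding protein RBPJ and turns on genes such as those of the Hes and Hey families, which encode repressors of transcription. In the vasculature the pathway is known for arterial identity and for the choice between tip and stalk cells during sprouting, and in lymphatics it is known for roles in vessel growth and valves.

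The Hey genes are the readout end of the set, and the promoter of Hey2 is shown because RBPJ binds the core letters TGGGAA. RefSeq promoter sequences of build GRCm38.p6 were matched for 9 of the 10 members, all but Hey1. The stretch from 250 bases before the Hey2 start to base 10 of the transcript lies at chr10:30842774-30843033 on the minus strand. Capitals mark the core letters or their reverse complement TTCCCA, and both strands were searched.
Hey2 promoter: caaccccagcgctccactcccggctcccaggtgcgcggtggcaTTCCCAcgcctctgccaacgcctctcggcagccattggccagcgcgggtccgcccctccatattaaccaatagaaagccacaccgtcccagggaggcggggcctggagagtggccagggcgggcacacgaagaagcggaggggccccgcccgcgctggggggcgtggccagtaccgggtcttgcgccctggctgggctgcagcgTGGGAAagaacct
The 2 matches begin 207 and 3 bases before the start. The same 6 letters occurred in 25.6% of 32851 RefSeq promoter windows of 300 bases and in 23.9% of the 14230 windows of tested genes, and Hey2 was the only member among the 9 whose window held them. The window of Nrarp, a further Notch target that was searched, held no match, and Hey1 could not be searched.

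Notch4 is shown as the member with the largest difference between LN-LEC and LN-BEC. Its stretch of the same length lies at chr17:34564045-34564304 on the plus strand of GRCm38.p6, and capitals mark the letters TGACTCA of the AP-1 motif, which were searched on both strands (reverse complement TGAGTCA) after the sequence had been seen.
Notch4 promoter: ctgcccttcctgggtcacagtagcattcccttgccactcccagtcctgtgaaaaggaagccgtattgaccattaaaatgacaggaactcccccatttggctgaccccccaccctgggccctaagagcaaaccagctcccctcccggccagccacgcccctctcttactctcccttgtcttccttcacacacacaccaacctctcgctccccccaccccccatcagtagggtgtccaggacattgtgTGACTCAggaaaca
This match begins 4 bases before the start. It was the only one among the members' windows, while 5.20% of all windows and 4.15% of those of tested genes held the letters. The 2 motifs share no matched bases, and a match describes letters only.

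Levels are given as FPKM, the fragments of a gene per kilobase of its exons, scaled to the TMM-adjusted size of the library, so that genes can be compared with each other. Differences between populations are log2 fold changes of counts with their standard error (SE), tested with edgeR's quasi-likelihood test and adjusted by the Benjamini-Hochberg method over 15363 genes. A gene was called at an adjusted p under 0.05. The libraries held 22429940 to 48906070 fragments, at which 3 counts equal 0.0613 to 0.134 CPM (counts scaled to the library total). LEC identity genes (Lyve1, Pdpn, Prox1, Flt4, Reln, Mmrn1) were called above LN-BEC in both LEC populations in 6 of 6 cases, and BEC identity genes (Flt1, Nrp1, Vwf, Cd34, Emcn, Plvap) were higher in LN-BEC in 6 of 6. LN-BEC library 3 carried more RNA of the LEC genes than the other LN-BEC libraries. Their summed level was 103 FPKM there, against 42.3 and 26.3 in LN-BEC libraries 1 and 2. It was 1475 to 1688 in LN-LEC and 5444 to 5792 in D-LEC. Between the LEC populations Pdpn, Flt4, Reln and Mmrn1 were called higher in D-LEC, though Pdpn lost the call without single libraries. Lyve1 and Prox1 were not called there, but Lyve1 was called with DESeq2 (adjusted p = 0.0281).

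Between LN-LEC and LN-BEC 10 of 10 members were called, with Notch2 and Jag1 higher in LN-LEC and the other 8 more abundant in LN-BEC. In the same comparison 38.2% of all tested genes were called, 19.8% with the higher level in LN-LEC and 18.4% with it in LN-BEC. Between LN-LEC and D-LEC 10 of 10 members were called, with more Notch2, Notch3, Jag1 and Jag2 in LN-LEC and more of the other 6 in D-LEC. Here 45.8% of all tested genes were called, 24.0% with the higher level in LN-LEC and 21.7% with it in D-LEC. Between D-LEC and LN-BEC 9 of 10 members were called, with more Notch1, Notch2, Dll4 and Hey1 in D-LEC and more of 5 members in LN-BEC. There 48.0% of tested genes were called, 22.4% with the higher level in D-LEC and 25.6% with it in LN-BEC. The median log2 fold change over the members was -1.66 for LN-LEC against LN-BEC, -0.70 for LN-LEC against D-LEC and -0.32 for D-LEC against LN-BEC, and over all tested genes these medians were -0.01, 0.03 and -0.05. The 3 comparisons share libraries and are not independent. Because the members were chosen with earlier results known, their counts beside those of all genes are a description only. The paper had already listed Notch4 as a BEC marker in these data.

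**Figure D1:**
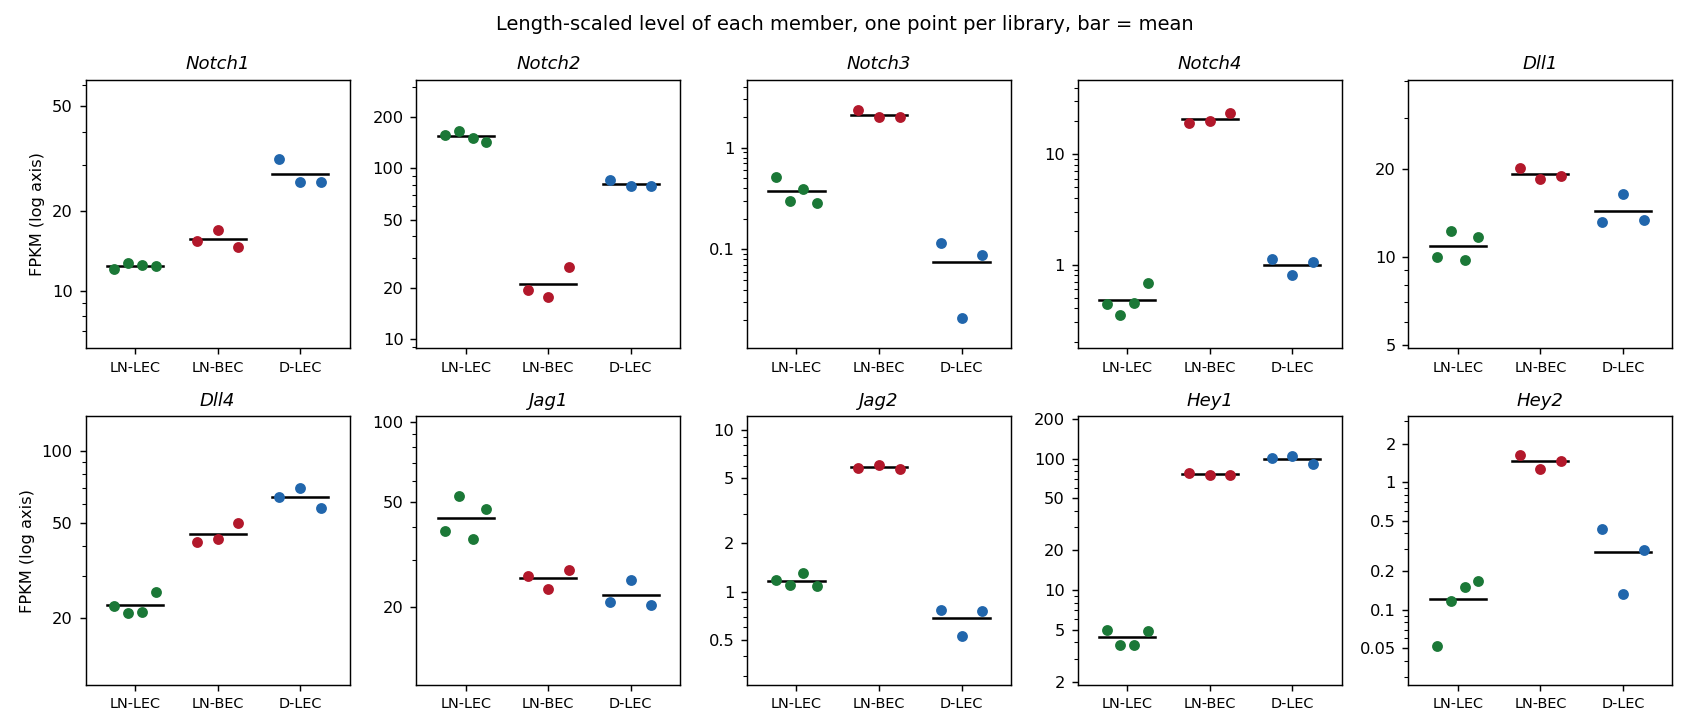
FPKM of the 10 members on logarithmic axes, 1 point per library (4 LN-LEC, 3 LN-BEC, 3 D-LEC) with the mean of each population as a bar. Notch4 lies between 19.2 and 23.6 in LN-BEC and at or below 1.13 in LEC libraries, while Hey1 is below 5 in LN-LEC and above 75 in the other libraries.

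Among the receptors, LN-LEC carried mainly Notch2, a widely expressed receptor. Notch2 (chr3:97817461-97954290, mm9, plus strand) stood at 157, 165, 151 and 143 FPKM in the 4 LN-LEC libraries, at 85.0, 79.1 and 78.3 in D-LEC, and at 19.3, 17.7 and 26.3 in LN-BEC. The 3 populations did not overlap, and the order was LN-LEC, D-LEC, LN-BEC. LN-LEC exceeded LN-BEC 7.29-fold (log2 fold change 2.87, SE 0.14, edgeR adjusted p = 1.6e-09) and D-LEC 1.90-fold (0.93, SE 0.12, adjusted p = 3.5e-05). D-LEC exceeded LN-BEC 3.83-fold (1.94, SE 0.14, adjusted p = 4.4e-08). The highest LN-BEC value belonged to library 3, the one with the most RNA of LEC genes. Without that library the LN-LEC against LN-BEC difference was 3.04.

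Notch1, the receptor best known for endothelial sprouting and arterial identity, was highest in D-LEC. Notch1 (chr2:26313422-26359342, minus strand) was measured at 12.1, 12.7, 12.5 and 12.4 FPKM in LN-LEC, at 15.4, 16.9 and 14.6 in LN-BEC and at 31.5, 25.8 and 25.9 in D-LEC. No populations overlapped, and the 4 LN-LEC libraries lay closest together. D-LEC exceeded LN-LEC 2.23-fold (log2 fold change of LN-LEC against D-LEC -1.16, SE 0.09, adjusted p = 1.4e-07) and LN-BEC 1.78-fold (0.83, SE 0.10, adjusted p = 7.4e-06). The step from LN-LEC to LN-BEC was small, 1.26-fold (-0.33, SE 0.09, adjusted p = 0.009), and it was not called without LN-BEC library 2 (-0.27, adjusted p = 0.0649).

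Notch4, a receptor largely restricted to endothelium, was abundant in the blood endothelial libraries. Notch4 (chr17:34701240-34725488, plus strand) was counted at 19.2, 19.8 and 23.6 FPKM in LN-BEC, at 1.13, 0.805 and 1.06 in D-LEC and at 0.437, 0.350, 0.447 and 0.680 in LN-LEC. Neither LEC population reached the LN-BEC range, and D-LEC also lay above LN-LEC in every library. LN-BEC exceeded LN-LEC 42.3-fold (log2 fold change -5.40, SE 0.20, adjusted p = 9.5e-10) and D-LEC 20.9-fold (-4.38, SE 0.21, adjusted p = 4.9e-09). D-LEC stood 2.03-fold above LN-LEC (-1.02, SE 0.20, adjusted p = 0.0011). Of the 6 BEC identity genes, the largest log2 fold changes of LN-LEC against LN-BEC were -6.19 (Flt1), -6.06 (Nrp1), -5.93 (Cd34) and -5.59 (Vwf). Emcn and Plvap differed less, and the median over all 6 was -5.76. LN-LEC library 4, with the highest Notch4 of its group, also had the highest Flt1 (1.38 FPKM), Vwf (0.734) and Cd34 (15.4), but LN-LEC library 1 had the highest Nrp1 (5.06, against 4.55 in library 4) and nearly as much Cd34 (14.8) with Notch4 at 0.437. The summed level of the BEC identity genes was 292 to 342 FPKM in LN-LEC and 220 to 263 in D-LEC, the reverse of the order of Notch4. The single genes split between the LEC populations. Cd34 and Emcn were called higher in D-LEC, as was Notch4, while Flt1, Nrp1 and Plvap were called higher in LN-LEC and Vwf was not called. In LN-LEC most of this sum came from Emcn and Plvap, because Flt1, Nrp1, Vwf and Cd34 each stayed at or below 15.4 FPKM. The part of carried-over BEC RNA in the LEC values of Notch4 was not tested.

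Notch3 is best known from pericytes and smooth muscle, the mural cells of blood vessels, and it was the rarest receptor in D-LEC and overlapped Notch4 in LN-LEC. Notch3 (chr17:32257838-32303797, minus strand) stood at 2.34, 1.99 and 1.99 FPKM in LN-BEC, against 0.512, 0.302, 0.391 and 0.284 in LN-LEC and at 0.115, 0.0212 and 0.0869 in D-LEC. The D-LEC values rested on 22, 5 and 25 fragments. LN-BEC exceeded LN-LEC 5.69-fold (log2 fold change -2.51, SE 0.31, adjusted p = 3.2e-05) and D-LEC 28.5-fold (-4.83, SE 0.40, adjusted p = 7.0e-07), and LN-LEC exceeded D-LEC 5.01-fold (2.33, SE 0.39, adjusted p = 3.3e-04).

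Among the mural marker genes, only Pdgfrb, Acta2, Myh11 and Tagln were called in the order of Notch3 in all 3 comparisons. Of 10 mural genes, LN-BEC had more of 6 than LN-LEC and more of 8 than D-LEC, LN-LEC had more of 7 than D-LEC, and Kcnj8 was higher in either LEC population. The summed mural level was 110 to 141 FPKM in LN-BEC, 72.3 to 110 in LN-LEC and 20.9 to 26.5 in D-LEC. Pdgfrb, a defining pericyte receptor, was at 1.94 to 2.21 FPKM in LN-BEC, 0.396 to 0.768 in LN-LEC and 0.149 to 0.307 in D-LEC, with its lowest value in D-LEC library 2, as for Notch3. Within D-LEC the mural sum was lowest in library 1 (20.9 FPKM, against 24.7 and 26.5), as were Rgs5, Myh11, Cnn1 and Kcnj8. Notch3 was at 0.115 FPKM in library 1 and at 0.0869 in library 3, on 22 and 25 fragments, too few to rank these libraries. None of the defining mural markers was at 0 in a whole population. The part of mural cells in the Notch3 values was not tested.

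The makeup of the receptor pool differed between the populations. Notch2 gave 91.5% to 92.5% of the summed receptor FPKM in LN-LEC, 72.2% to 74.8% in D-LEC and 31.5% to 39.5% in LN-BEC. In LN-BEC, Notch4 supplied a further 34.1% to 35.5% and Notch1 22% to 29.9%, so that 3 receptors were at like levels. Notch1 made up 24.4% to 26.8% in D-LEC but 7.13% to 7.93% in LN-LEC. The summed level ran from 156 to 178 FPKM in LN-LEC, from 105 to 118 in D-LEC and from 56.2 to 66.5 in LN-BEC, with no overlap.

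**Figure D2:**
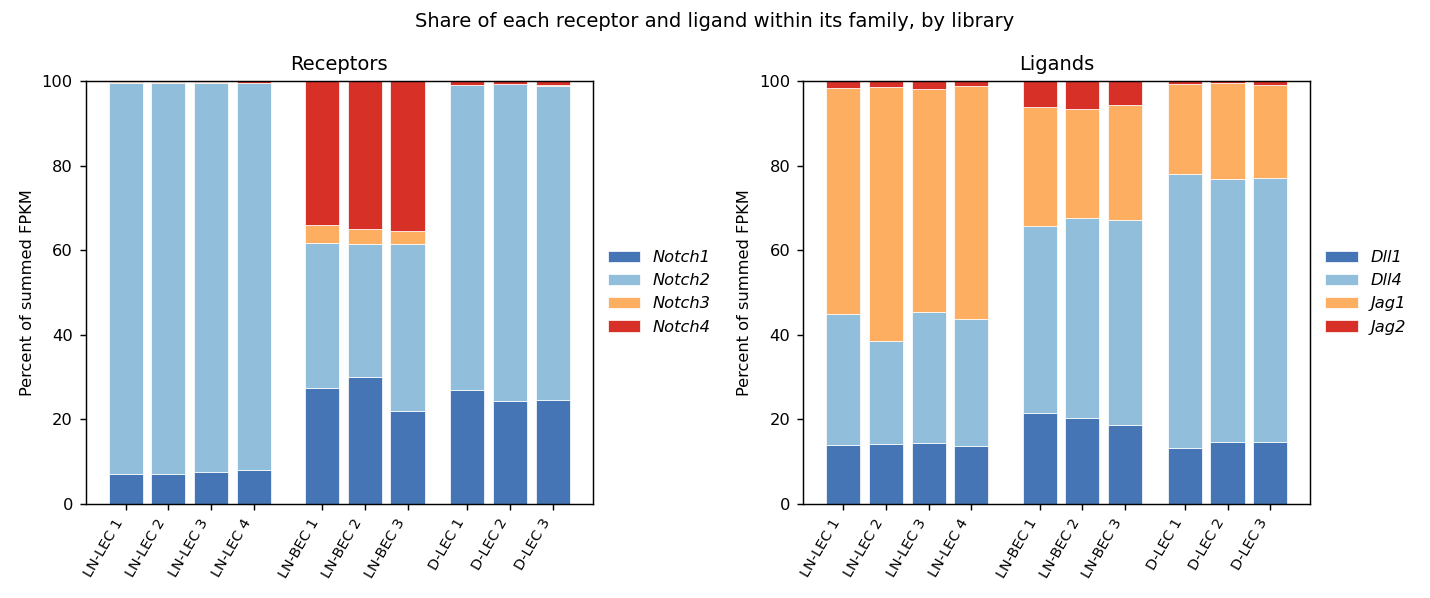
Share in percent of each receptor (left) and each ligand (right) in the summed FPKM of its family, 1 bar per library. Notch2 takes at least 91.5% of receptor FPKM in LN-LEC, Notch4 at least 34.1% in LN-BEC, and among ligands Jag1 leads in LN-LEC and Dll4 in the other populations.

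Among the ligands, Dll4 was the leading one in LN-BEC and D-LEC. Dll4 is the ligand of arterial and tip cells. Dll4 (chr2:119151520-119161402, plus strand) was measured at 22.5, 21.0, 21.2 and 25.7 FPKM in LN-LEC, at 41.7, 42.6 and 49.6 in LN-BEC and at 64.3, 69.5 and 57.6 in D-LEC. The populations formed 3 separate steps, lowest in LN-LEC. D-LEC exceeded LN-LEC 2.82-fold (log2 fold change -1.50, SE 0.10, adjusted p = 3.5e-08) and LN-BEC 1.43-fold (0.52, SE 0.11, adjusted p = 0.0013). LN-BEC exceeded LN-LEC 1.98-fold (-0.98, SE 0.10, adjusted p = 2.7e-06). Of the exon bases of Dll4, 6.29% are shared with the predicted gene Gm14207, and fragments there were not assigned to either.

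Jag1, a ligand of the Jagged class, was the leading ligand in LN-LEC. Jag1 (chr2:136907187-136942256, minus strand) stood at 38.6, 52.3, 36.0 and 46.9 FPKM in LN-LEC, at 26.3, 23.4 and 27.7 in LN-BEC and at 21.0, 25.3 and 20.4 in D-LEC. LN-LEC lay above all other libraries, while LN-BEC and D-LEC overlapped. LN-LEC exceeded LN-BEC 1.69-fold (log2 fold change 0.75, SE 0.13, adjusted p = 3.8e-04) and D-LEC 1.96-fold (0.97, SE 0.13, adjusted p = 4.1e-05). Between D-LEC and LN-BEC the log2 fold change was -0.21 with an SE of 0.14 (adjusted p = 0.22), the only member comparison that was not called.

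The balance of Jag1 and Dll4 was on opposite sides of 1 in the LEC populations. The ratio of Jag1 to Dll4 FPKM was 1.72, 2.49, 1.70 and 1.83 in LN-LEC, 0.630, 0.548 and 0.558 in LN-BEC and 0.326, 0.364 and 0.354 in D-LEC. Jag1 gave 52.8% to 60.3% of the ligand FPKM in LN-LEC, against 25.8% to 28% in LN-BEC and 21.1% to 22.7% in D-LEC. Dll4 gave 24.2% to 31.1%, 44.4% to 48.6% and 62.2% to 64.8% in the same order.

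Dll1 and Jag2 were highest in LN-BEC. Dll1 (chr17:15504318-15512787, minus strand), a ligand of the Delta class, was at 10, 12.3, 9.76 and 11.7 FPKM in LN-LEC, at 20.2, 18.5 and 19.0 in LN-BEC and at 13.2, 16.4 and 13.4 in D-LEC. LN-BEC exceeded LN-LEC 1.76-fold (log2 fold change -0.81, SE 0.11, adjusted p = 3.0e-05) and D-LEC 1.34-fold (-0.42, SE 0.11, adjusted p = 0.0073). D-LEC exceeded LN-LEC 1.31-fold (-0.39, SE 0.11, adjusted p = 0.009), which was not called without D-LEC library 2 (-0.28, adjusted p = 0.0537).

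Jag2 (chr12:114146801-114167706, minus strand), the second Jagged ligand, was at 5.81, 6.03 and 5.71 FPKM in LN-BEC, against 1.18, 1.09, 1.30 and 1.08 in LN-LEC and at 0.769, 0.531 and 0.763 in D-LEC. The groups were separate, with a narrow spread in LN-BEC. LN-BEC exceeded LN-LEC 5.04-fold (log2 fold change -2.33, SE 0.14, adjusted p = 1.5e-08) and D-LEC 8.50-fold (-3.09, SE 0.16, adjusted p = 2.4e-09). LN-LEC exceeded D-LEC 1.69-fold (0.75, SE 0.15, adjusted p = 0.0011), so that both Jagged ligands stood higher, and both Delta ligands lower, in the lymph node LEC than in those of the diaphragm.

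**Figure D3:**
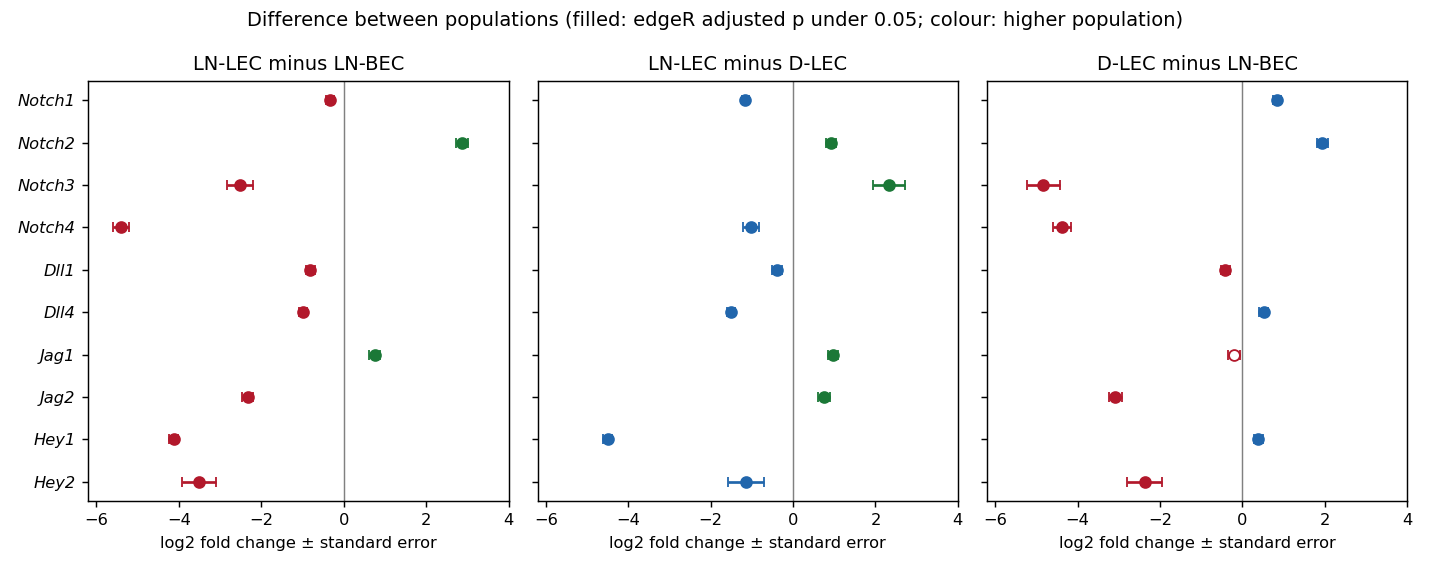
Log2 fold change of each member in the 3 comparisons, with standard errors as bars. Filled points have an edgeR adjusted p under 0.05 and the colour names the higher population. Hey1 has -4.12 and -4.50 in the comparisons of LN-LEC with LN-BEC and D-LEC but 0.38 between D-LEC and LN-BEC, and Jag1 between D-LEC and LN-BEC is the open point.

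The target gene Hey1 set LN-LEC apart from both other populations. Hey1 (chr3:8663359-8667038, minus strand) stood at 4.94, 3.79, 3.79 and 4.90 FPKM in LN-LEC, at 77.9, 75.1 and 75.5 in LN-BEC and at 101, 105 and 91.3 in D-LEC. It was the most abundant of the 10 members per length in LN-BEC and D-LEC and the sixth in LN-LEC. LN-BEC exceeded LN-LEC 17.4-fold (log2 fold change -4.12, SE 0.11, adjusted p = 1.8e-11) and D-LEC exceeded it 22.6-fold (-4.50, SE 0.11, adjusted p = 7.0e-12). Between D-LEC and LN-BEC the difference was 1.30-fold (0.38, SE 0.11, adjusted p = 0.012), without overlap. The order of Hey1 was thus that of Dll4 and also of Notch1, with LN-LEC lowest and D-LEC highest.

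Hey2, its paralogue, was expressed at a low level and did not follow Hey1 in D-LEC. Hey2 (chr10:30552165-30562589, minus strand) was at 1.64, 1.26 and 1.48 FPKM in LN-BEC, at 0.427, 0.133 and 0.294 in D-LEC and at 0.0518, 0.118, 0.151 and 0.168 in LN-LEC. The LN-LEC values rest on 3, 7, 10 and 20 fragments and the D-LEC values on 26, 10 and 27, and D-LEC library 2 lies inside the LN-LEC range. LN-BEC exceeded LN-LEC 11.4-fold (log2 fold change -3.51, SE 0.41, adjusted p = 1.1e-05) and D-LEC 5.16-fold (-2.37, SE 0.43, adjusted p = 4.1e-04). The step from LN-LEC to D-LEC (-1.15, SE 0.44, adjusted p = 0.046) was not called in 9 of 19 alternative fits, with adjusted p from 0.0547 to 0.208 among those 9. Without D-LEC library 1 it was -0.76, and without D-LEC library 2 it was -1.49 with an adjusted p of 0.0106.

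D-LEC libraries carried RNA of skeletal muscle, whose satellite cells also use Notch and Hey genes. All 11 muscle genes tested were called above LN-LEC in D-LEC, beside 21.7% of all tested genes. However, Pax7, Myh4 and Cdh15 lost the call without single libraries. With DESeq2 Myh4 was not called (adjusted p = 0.129) and Pax7 received no adjusted p. The summed level of the 11 muscle genes was 23.9 to 31.4 FPKM in D-LEC against at most 0.619 in lymph node libraries. The satellite cell genes Myf5 (0.339 to 1.32 FPKM), Myod1 (0.179 to 0.471) and Pax7 (0.00787 to 0.0323) were low in D-LEC and at 0 in all 7 lymph node libraries. Hey1 was at 91.3 to 105 FPKM in the same D-LEC libraries, and at 75.1 to 77.9 in LN-BEC, where the muscle sum was at most 0.619. Of 6 mesothelial genes 4 were called above LN-LEC in D-LEC, with sums of 8.83 to 27 FPKM against 1.58 to 8.78. Over all tested genes 21.7% were called in that direction. Within D-LEC, library 1 had the highest Myf5, Notch1 and Hey2 but the lowest muscle sum (23.9 FPKM, against 30.8 and 31.4). Hey1 was highest in library 2, where Myf5 and Pax7 were lowest. The part of muscle or mesothelial cells in these values was not tested.

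**Figure D4:**
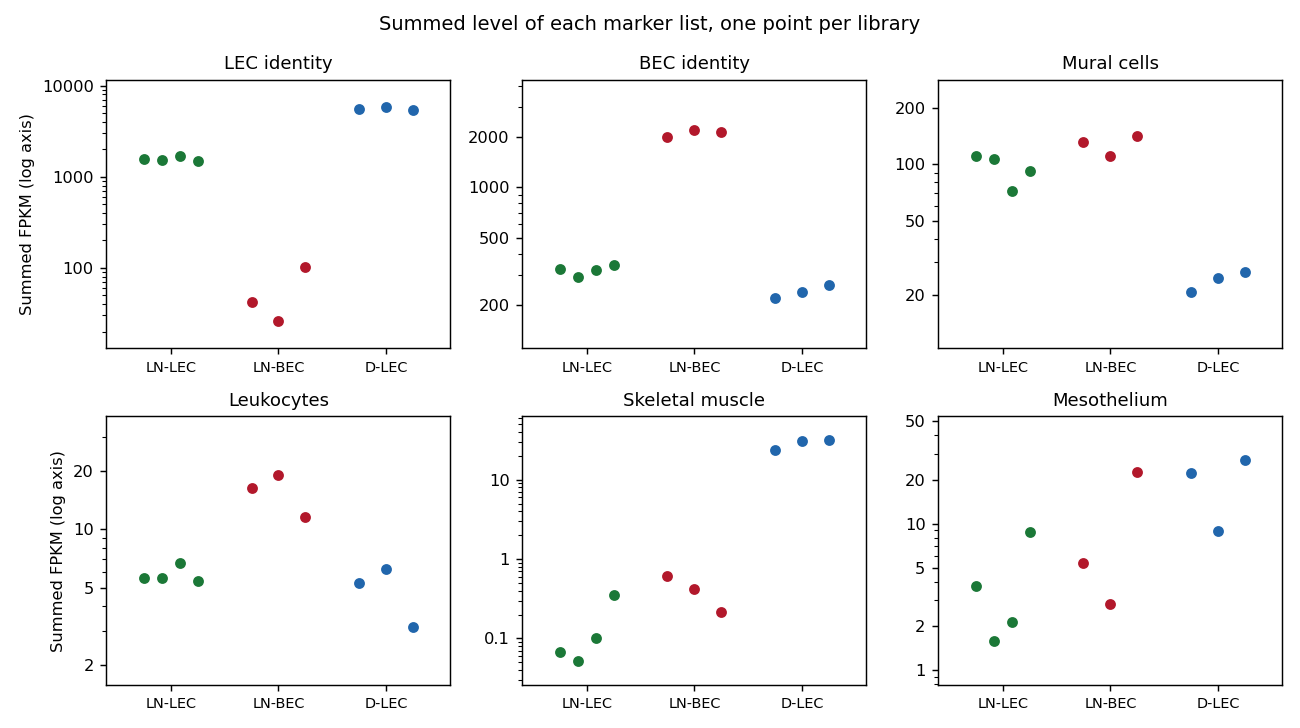
Summed FPKM of 6 marker lists on logarithmic axes, 1 point per library. LEC and BEC identity genes separate the populations, the mural sum is lowest in D-LEC (20.9 to 26.5) and the skeletal muscle sum is at least 23.9 in D-LEC and at most 0.619 elsewhere.

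Ordered by level per length, the members ran Notch2, Jag1, Dll4, Notch1, Dll1, Hey1, Jag2, Notch4, Notch3, Hey2 in LN-LEC. The neighbours Notch1 and Dll1, and Notch4 and Notch3, overlapped there. In LN-BEC the order was Hey1, Dll4, Jag1, Notch2, Notch4, Dll1, Notch1, Jag2, Notch3, Hey2, and the ranges of Jag1 and Notch2, of Notch2 and Notch4 and of Notch4 and Dll1 overlapped. In D-LEC it was Hey1, Notch2, Dll4, Notch1, Jag1, Dll1, Notch4, Jag2, Hey2, Notch3, and no neighbours overlapped.

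Genes elsewhere in the pathway were taken from lists of ligand-like genes, ubiquitin ligases, glycosylation enzymes, proteases, nuclear factors, inhibitors and targets. Of 63 further pathway genes 61 passed the filter, and Dll3 and Hes2 did not. Of the 61, 29 were called in the comparison of LN-LEC with LN-BEC (12 higher in LN-LEC, 17 in LN-BEC), 30 in that of LN-LEC with D-LEC (15 in each direction) and 34 in that of D-LEC with LN-BEC (12 higher in D-LEC, 22 in LN-BEC). Over all tested genes the shares were 38.2%, 45.8% and 48.0%, and the counts per list below are to be read beside these. The 61 genes had median log2 fold changes of -0.06, -0.06 and -0.11.

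Among other ligand-like genes, the secreted endothelial protein gene Egfl7 was far the most abundant, at 277 to 340 FPKM in LN-LEC, 502 to 585 in LN-BEC and 374 to 403 in D-LEC. It was lowest in LN-LEC (log2 fold change -0.88, SE 0.09, adjusted p = 4.3e-06 against LN-BEC, and -0.38, SE 0.09, adjusted p = 0.0045 against D-LEC). Dner and the Delta-like genes Dlk1 and Dlk2 were called higher in LN-BEC than in either LEC population but were at most 0.619 FPKM in any library, and the call of Dlk1 against LN-LEC was lost without any 1 of the 4 LN-LEC libraries (adjusted p from 0.0506 to 0.0629), without LN-BEC library 2 (0.0680) and without LN-BEC library 3 (-2.24, adjusted p = 0.113). Mfap2, a microfibril protein gene, was higher in LN-LEC (6.93 to 11.5 FPKM) than in LN-BEC (3.46 to 4.54) or D-LEC (3.03 to 3.95). Of the ubiquitin ligases that act on ligands, Neurl1b was higher in LN-BEC (1.88 to 2.46 FPKM) than in LN-LEC (0.201 to 0.304) and D-LEC (0.381 to 0.509). The D-LEC and LN-LEC ranges of Neurl1b did not overlap (log2 fold change -0.65, SE 0.20, adjusted p = 0.019), though the call was lost without D-LEC library 3 (adjusted p = 0.0995). Neurl1a was called between LN-LEC and D-LEC (adjusted p = 0.047), a call lost without any 1 of those 7 libraries except LN-LEC library 4 and also without LN-BEC library 1, and Mib1 and Mib2 were called in no comparison.

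The Fringe genes encode enzymes that add sugars to Notch receptors and change which ligand they prefer, and of the 61 genes Mfng had the largest log2 fold change between D-LEC and LN-BEC (-8.13, SE 0.23, adjusted p = 2.8e-11). Mfng was at 88.9, 110 and 113 FPKM in LN-BEC, against 5.03, 3.64, 4.24 and 4.96 in LN-LEC and at 0.521, 0.404 and 0.226 in D-LEC. LN-LEC lay below LN-BEC by a log2 fold change of -4.54 (SE 0.16, adjusted p = 2.8e-10) and above D-LEC by 3.60 (SE 0.22, adjusted p = 3.0e-08). Lfng differed less, with 9.10 to 12.1 FPKM in LN-BEC, 5.10 to 6.62 in LN-LEC and 4.55 to 9.14 in D-LEC. It was called between LN-LEC and LN-BEC (-0.88, SE 0.20, adjusted p = 0.0037), while its call between D-LEC and LN-BEC (-0.58, adjusted p = 0.043) was lost in 8 alternative fits (adjusted p from 0.0529 to 0.136). Rfng was at 4.26 to 4.70 FPKM in D-LEC and at 8.32 to 9.71 in lymph node libraries, and Pofut1 and Poglut1, the O-glycosylation enzymes, were called in no comparison.

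Among the 9 genes of the receptor proteases, 5 were called between LN-LEC and LN-BEC, 5 between LN-LEC and D-LEC and 6 between D-LEC and LN-BEC. Psen2, a catalytic subunit of gamma-secretase, was at 176 to 192 FPKM in LN-LEC, 73.6 to 83.1 in D-LEC and 47.7 to 55.1 in LN-BEC, in the order of Notch2. Aph1b, a further subunit, was at 25.4 to 28.9 FPKM in D-LEC but 2.17 to 2.79 in LN-LEC and 0.859 to 1.74 in LN-BEC (log2 fold change of LN-LEC against D-LEC -3.44, SE 0.18, adjusted p = 1.1e-08). Adam10, the protease that makes the outer cut, was at 196 to 229 FPKM in LN-LEC, 149 to 173 in LN-BEC and 234 to 300 in D-LEC. Aph1a was higher in LN-BEC than in either LEC population, and Ncstn and Psenen were called in no comparison.

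In the nucleus, Rbpj was at 22.7 to 25.9 FPKM in LN-LEC, 24.4 to 27.8 in D-LEC and 17.9 to 20.7 in LN-BEC. The LEC populations exceeded LN-BEC (log2 fold change 0.36, SE 0.09, adjusted p = 0.0038 for LN-LEC, and 0.43, SE 0.09, adjusted p = 0.0016 for D-LEC). Between them Rbpj had a log2 fold change of -0.06 (SE 0.08, adjusted p = 0.59). Of the 9 genes of RBPJ and its coactivators, 3, 5 and 4 were called in the comparisons of LN-LEC with LN-BEC, LN-LEC with D-LEC and D-LEC with LN-BEC. The coactivator Maml3 was the most uneven, with 2.21, 2.08 and 1.80 FPKM in LN-BEC, 0.644 to 0.822 in D-LEC and 0.0942 to 0.252 in LN-LEC, while Maml2 was higher in LN-LEC (11.2 to 13.1) than in LN-BEC (7.90 to 9.39) or D-LEC (7.94 to 8.80).

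Of 12 corepressor genes, 5, 4 and 6 were called in the same 3 comparisons. Tle2 was highest in LN-LEC (5.33 to 5.95 FPKM), with 2.96 to 3.47 in LN-BEC and 1.07 to 1.60 in D-LEC. Tle1 was at 20.1 to 25.8 FPKM over LEC libraries and at 10.5 to 12.8 in LN-BEC.

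Of 10 genes of receptor turnover and inhibition, 5, 6 and 7 were called. Nrarp, a feedback inhibitor that Notch itself turns on, was at 42.3, 46.3 and 45.7 FPKM in LN-BEC, at 17.2, 27.7 and 19.5 in D-LEC and at 8.11, 7.62, 6.86 and 8.28 in LN-LEC. LN-LEC was lowest, as for Hey1 (log2 fold change -2.53, SE 0.14, adjusted p = 7.8e-09 against LN-BEC, and -1.48, SE 0.14, adjusted p = 1.1e-06 against D-LEC). Dtx1, a Deltex ubiquitin ligase, was at 53.1, 45.1 and 50.1 FPKM in D-LEC, 15.5 to 19.8 in LN-LEC and 1.44 to 1.73 in LN-BEC (log2 fold change of D-LEC against LN-BEC 4.94, SE 0.13, adjusted p = 7.3e-12). Dtx3l ran the other way, with 110 to 124 FPKM in LN-BEC, 57.8 to 64.7 in LN-LEC and 31.9 to 35.7 in D-LEC. Fbxw7 was higher in LN-BEC (36.1 to 42.5 FPKM) than in LN-LEC (23.8 to 27.2) or D-LEC (23.8 to 26.6).

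Among the other Hes and Hey genes, Hes1 and Heyl were highest in D-LEC. Hes1 was at 190, 258 and 213 FPKM in D-LEC, at 66.7, 67.1, 62.9 and 93.0 in LN-LEC and at 70.9, 63.3 and 92.9 in LN-BEC. The lymph node populations overlapped (log2 fold change -0.06, SE 0.17, adjusted p = 0.81), whereas LN-LEC lay below D-LEC (-1.60, SE 0.17, adjusted p = 8.1e-06). Heyl was at 1.20 to 1.87 FPKM in D-LEC, 0.416 to 0.657 in LN-BEC and 0.0386 to 0.170 in LN-LEC, and LN-LEC was lower than LN-BEC (-2.16, SE 0.35, adjusted p = 2.2e-04) and D-LEC (-3.61, SE 0.35, adjusted p = 1.7e-06). The part of muscle, mesothelial or mural cells in the Hes1 and Heyl values was not tested. Hes6 was highest in LN-LEC (10.5 to 14.2 FPKM) and lowest in D-LEC (3.65 to 4.08), and its call between the lymph node populations (adjusted p = 0.043) was lost in 9 alternative fits, DESeq2 among them (adjusted p from 0.0526 to 0.161). Hes5 had no count in LN-LEC and at most 0.195 FPKM elsewhere, too low for a fold.

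**Figure D5:**
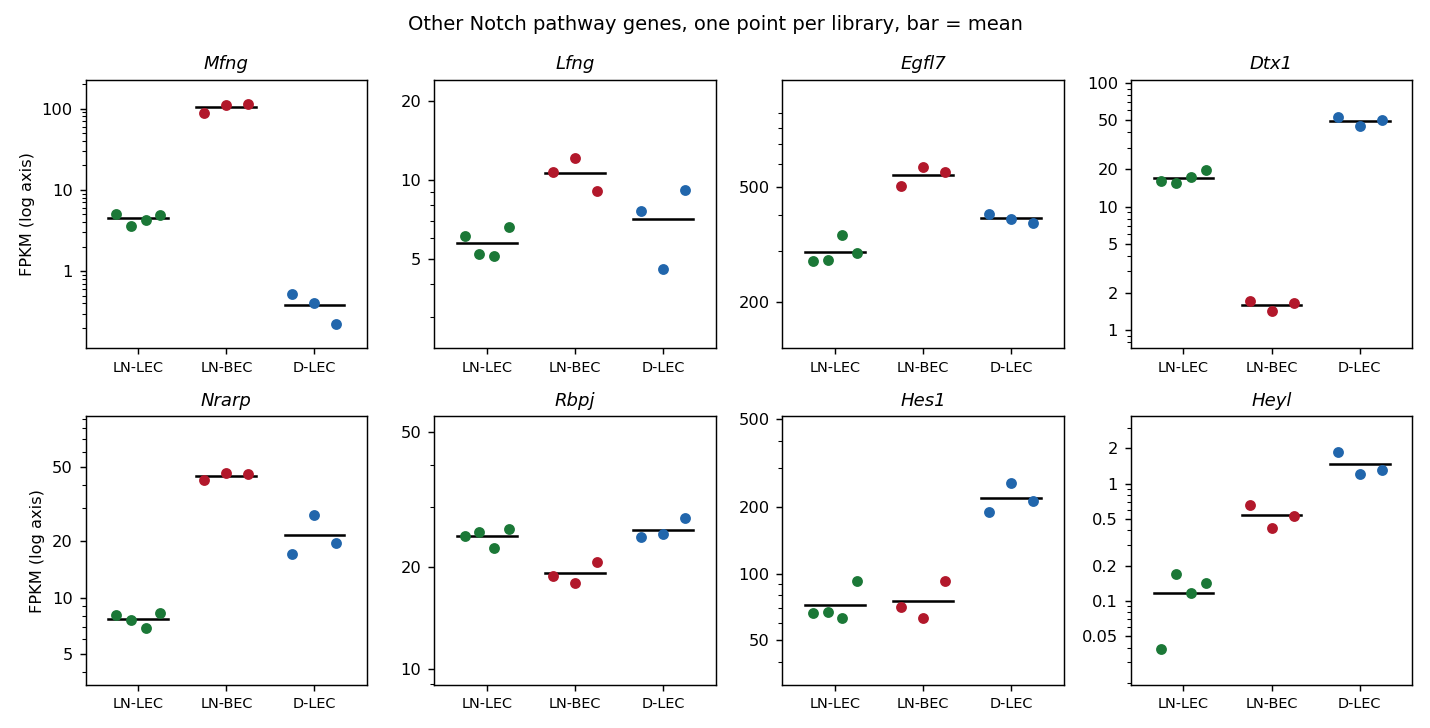
FPKM of 8 other pathway genes on logarithmic axes, 1 point per library with the mean as a bar. Mfng spans from at most 0.521 in D-LEC to at least 88.9 in LN-BEC, Nrarp and Heyl are lowest in LN-LEC, and Hes1 is at 190 or more in D-LEC and at 93.0 or less in the lymph node libraries.

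The arterial genes, several of which are known to depend on Notch, did not move as 1 group. All 8 were called between each LEC population and LN-BEC, 4 in each direction. Over all tested genes 38.2% were called between LN-LEC and LN-BEC and 48.0% between D-LEC and LN-BEC. Efnb2, the arterial ephrin ligand, was at 138 to 172 FPKM in LN-LEC, 140 to 182 in D-LEC and 107 to 126 in LN-BEC (log2 fold change of LN-LEC against LN-BEC 0.43, SE 0.11, adjusted p = 0.0088), and the call was lost when LN-BEC library 3 and LN-LEC library 4 were both left out (adjusted p = 0.0632). Gja4, a connexin of arteries and of lymphatic valves, was at 45.1 to 61.8 FPKM in LN-LEC, 37.7 to 54.9 in D-LEC and 33.5 to 36.5 in LN-BEC (0.60, SE 0.13, adjusted p = 0.0028). The D-LEC calls of both were lost without single libraries. Unc5b and Bmx were also higher in both LEC populations. Gja5, Sema3g, Cxcr4 and Sox17 were higher in LN-BEC, with Sox17 at 38.2 to 42.2 FPKM there and at most 0.632 in LEC libraries.

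For each member the 3 genes with the most similar pattern were listed, by Pearson's r of log2 CPM over the 10 libraries among 10531 or more other genes. These r values describe 3 groups of libraries and mainly reflect the group means. Nearest to Hey1 were Clic5 (r = 0.995), Tmsb4x and Ppap2a (both 0.993), and nearest to Dll4 were Rhob (0.996), Bag5 (0.993) and Fam176a (0.990). Tmsb4x, for example, was at 792 to 999 FPKM in LN-LEC and at 5729 to 6640 in the other libraries. Nearest to Notch4 were Cd34 (0.995), B4galt4 (0.994) and C1qtnf1 (0.993). Jag2 had Ly6a (0.994), Nrp1 (0.993) and Ripply3 (0.991), and Notch3 had Pck2 (0.987), Pde2a (0.983) and Rgs12 (0.979). Notch2 had Flrt3 and Rap2a (both 0.994) and Slc39a4 (0.993), and Notch1 had Lax1, Dock6 and Lmna (0.992 each). Jag1 had Sdad1 (0.978), Cmtm4 (0.966) and Gimap9 (0.965), Dll1 had Mbnl2 (0.976), Socs5 (0.966) and Ptk2 (0.962), and Hey2 had Npff (0.978), Prickle3 (0.974) and Cd97 (0.968).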

How the data were processed

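RNA was measured in 10 libraries of 3 sorted populations. The authors aligned read pairs to mm9 with STAR and counted fragments per gene symbol with featureCounts version 1.4.4, without regard to strand. The deposited values are raw counts, beside a column of exon length. Predicted genes and unnamed clones (3787 of 23284 rows) were left out, as the study did for its gene lists, and a gene was tested if any population had a mean normalized count of 1 or more (15363 genes). One edgeR 4.0.16 model in R 4.3.3 (TMM, robust quasi-likelihood fit, population as the only term) covered all libraries, with Benjamini-Hochberg adjustment of the p-values over the tested genes. FPKM was computed from counts, exon length and TMM-scaled totals and is given per library or as a range.

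The members and lists were chosen with earlier results of these data known. Named beside the members were, in each pathway list, called genes with the largest log2 fold changes (up to 3 per comparison), Rbpj, Hes1, Heyl, Nrarp, Mfng, Lfng, Efnb2 and Gja4, and the 3 genes most like each member. Not every gene that this rule picks is reported here. Other genes that stand in the text were picked from the lists after their values were seen. Alternatives were DESeq2 1.42.0, other size factors, filters and sets of libraries. Fewer fragments give less precision, and 3 counts were taken as the floor of detection. Fibroblast and leukocyte markers were also checked. Batch, sorting day and pairing are not given in the sources used here.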

Additional observations from a re-analysis of the deposited data

How the results depend on the processing

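Over 30 combinations of member and comparison, 19 alternatives each gave 570 values. Of these, 559 kept their direction and their side of the threshold, none changed direction, and 11 lost an adjusted p under 0.05. The 11 were Hey2 between LN-LEC and D-LEC in 9 alternatives, Notch1 between LN-LEC and LN-BEC without LN-BEC library 2 (-0.27, adjusted p = 0.0649) and Dll1 between LN-LEC and D-LEC without D-LEC library 2 (-0.28, adjusted p = 0.0537). The Hey2 losses came with 8 of the 10 single libraries left out and with a fit of only the 2 populations (adjusted p = 0.0898). The other 27 combinations were the same throughout, and counts of called members, pathway genes and all genes stayed within 1.5 times. No paired analysis was possible because the labels pair no libraries across populations. Scaling moved the median of all genes by less than 0.1. Depth limits Hey2 and Notch3 in LEC, which rest on 3 to 106 fragments per library.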

Other observations

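Beside the Notch genes, venous and valve genes were read in the same libraries. Nr2f2, the venous factor that restrains Notch in veins, was at 125 to 163 FPKM in LN-LEC, 170 to 211 in D-LEC and 28.0 to 28.6 in LN-BEC (log2 fold change of LN-LEC against LN-BEC 2.36, SE 0.11, edgeR adjusted p = 2.0e-09). The other venous genes split: Aplnr, Darc and Selp were highest in LN-BEC, and Ephb4 and Nrp2 were highest in D-LEC. Of 6 venous genes 4 were called between LN-LEC and LN-BEC, 6 between LN-LEC and D-LEC and 6 between D-LEC and LN-BEC. Over all tested genes the shares called in these comparisons were 38.2%, 45.8% and 48.0%.

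Of 7 lymphatic valve genes LN-LEC had more of 5 than LN-BEC and less of Gata2 and Gja1. All 7 were called there, beside 38.2% of all tested genes. Foxc2, a valve transcription factor, was at 91.3 to 127 FPKM in LN-LEC, 158 to 215 in D-LEC and 3.81 to 11.3 in LN-BEC. Cldn11 was at 91.6 to 111 FPKM in LN-LEC, against 9.17 to 10.3 in D-LEC and 6.18 to 10.4 in LN-BEC (log2 fold change of LN-LEC against D-LEC 3.38, SE 0.17, edgeR adjusted p = 3.5e-09). Between the LEC populations 4 of the 7 were called, beside 45.8% of all tested genes, with Itga9 and Cldn11 higher in LN-LEC and Nfatc1 and Gja1 higher in D-LEC. Foxc2 was not called there (-0.74, edgeR adjusted p = 0.0902), though its ranges did not overlap. It was called with DESeq2 (adjusted p = 0.0108).

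Leukocyte genes summed to 11.6 to 19.2 FPKM in LN-BEC, 5.42 to 6.71 in LN-LEC and 3.15 to 6.24 in D-LEC, after depletion of cells bearing CD45. Fibroblast genes summed to 28.9 to 125 FPKM in LN-BEC, 62.3 to 118 in LN-LEC and 42 to 115 in D-LEC, with overlap of all 3 populations.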
